A study of Mus musculus with 10 samples.

Results

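The genes described here are the ligands and receptors of the classical axon guidance systems, as expressed by mouse epidermal cells that carry an active Hedgehog pathway. Members were chosen by gene name, with earlier results of these data known. The choice took semaphorins, plexins, neuropilins, ephrins, Eph receptors, Slits, Robos, netrins Ntn1 and Ntn4, the Unc5 receptors and Dcc. This gave 70 of the 49671 gene rows in the table, of which 67 are protein-coding genes and 3 are antisense transcripts of Plxna4. Unc50 and Unc5cl, 2 rows that share the first letters but are not netrin receptors, were left out. Of the 70, 33 were ligands and 34 were receptors.

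These systems are cell surface signals that tell a growing axon or a migrating cell to advance, turn or withdraw. Class 3 semaphorins are secreted and bind neuropilins, which pair with plexins to send the signal into the cell; the other semaphorins are membrane-bound and mostly bind plexins directly. Ephrins are membrane-anchored and bind Eph receptor kinases on a neighbouring cell, Slits are secreted and bind Robos, and netrins bind Dcc, neogenin and Unc5 receptors. In epidermis, several of these molecules are known for effects on keratinocyte adhesion, sorting and migration and for guiding sensory nerve endings and vessels towards the skin.

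The series measured polyA RNA by bulk sequencing in YFP-positive epidermal cells sorted by FACS, 10.000 to 200.000 cells per sample, in 5 groups of 2 libraries. All 5 groups express SmoM2-YFP, an active mutant of Smoothened, the signal transducer of the Hedgehog pathway, from the Rosa locus. At 6 weeks after TAM (read as tamoxifen), Krt14-CREER/Rosa-SmoM2 controls were compared with Krt14-CREER/Rosa-SmoM2/Survivin LOF cells. At 8 weeks the groups were Krt14-CREER/Rosa-SmoM2, Inv-CREER/Rosa-SmoM2, and Inv-CREER/Rosa-SmoM2/Krt14rtTA/Survivin-GOF. The Krt14 promoter drives the recombinase in basal keratinocytes and the Inv (involucrin) promoter in cells further along differentiation. The labels give no age of the animals, and the descriptions of both Inv-CREER controls carry the word CTLpool, so the number of animals behind a library is not known and p-values measure only the spread between these libraries. The label of the Inv-CREER controls does not name Krt14rtTA, so the effect of that transgene and of Survivin GOF cannot be told apart. Below, Krt14-CREER and Inv-CREER name the control groups without a Survivin allele, and LOF and GOF the groups with one. In bulk samples, fewer cells of a type and less RNA per cell cannot be told apart either.

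Between 7693179 and 8870769 reads lay behind each library, and 3 reads, taken as the floor of detection, were worth 6.76 to 7.80 normalized counts. This floor reflects counting error and nothing else, because amplified reads carry no molecular identifiers. Birc5, the gene for Survivin, was at 961 and 1103 normalized counts in the 6 week Krt14-CREER controls, 382 and 429 with Survivin LOF, 1005 and 926 in Krt14-CREER at 8 weeks, 237 and 265 in Inv-CREER, and 7277 and 16384 with Survivin GOF. All 8 basal keratinocyte markers tested were detected in every group, with sums of 168805 to 329452. The Survivin GOF libraries differed from each other more than any other pair (chi-square per degree of freedom 21.48 against 2.65 to 6.85), and the endothelial markers summed to 439 in 1 of them and 1594 in the other, against 160 to 408 elsewhere. Sums of the sebaceous list were 194490 and 200345 in Inv-CREER, against 16286 to 65496 in the other groups. The summed melanocyte list was at 874 to 1483 in the Krt14-CREER libraries and 1726 to 3000 in the other groups, the immune list at 212 to 458 and 540 to 1085, and the fibroblast list, nearly all of it Dcn, at 1300 to 2673 and 14803 to 37656. Within the immune list Cd74 was at 55 to 230 in the Krt14-CREER libraries and 333 to 751 in the other groups. Ptprc, in the same list, did not rise with it, at 13 to 41 and 7 to 45. The Schwann and nerve list summed to 678 to 1585 over all libraries, and the Merkel list to 17 to 46. Members of the Schwann and nerve list differed in opposite directions. Tubb3 was at 336 to 891 in the Krt14-CREER libraries and 3 to 32 in the other groups, and Ngfr at 85 to 352 and 21 to 112. Mbp was at 268 to 292 in the Krt14-CREER libraries and 432 to 690 in the other groups. Xist, expressed from the inactive X chromosome of females, was at 51 to 194 in all control libraries, at 30024 and 59594 with Survivin LOF, and at 7589 and 56185 with Survivin GOF. The Y-linked Ddx3y was at 2289 to 2909 in the control libraries, 1336 and 956 with Survivin LOF, and 3328 and 970 with Survivin GOF. It was thus detected in every library. Kdm5d, Eif2s3y and Uty, also Y-linked, were lower in both LOF libraries and in GOF replicate 2 than in any control library. The part of these differences in the results below was not tested. Values with Xist in the model are given, but they cannot tell Xist level from Survivin genotype.

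Most of the guidance genes were detected. Above the floor in all 10 libraries were 48 of the 70 members, 8 were at or under it in all 10, and 47 had a mean of at least 50 normalized counts. Per kilobase of merged exons, the highest over all libraries was the ligand Efna1 at 936 normalized counts per kb, followed by the co-receptor Nrp2 at 829 and the plexins Plxna1 at 802 and Plxnb2 at 780. Ephrin-B ligands Efnb1 (713) and Efnb2 (678), the receptor Ephb4 (669), the ephrin Efna5 (557), the membrane semaphorin Sema5a (507) and Plxnb1 (472) completed the first 10 on this scale. Neighbours in this order lie close together and their order was not tested. Dcc, the attractive netrin receptor, was at 0 reads in all 10 libraries, and Epha3, Epha5, Epha8, Robo3, Slit2 and Sema5b never exceeded 11 normalized counts.

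In some families a single gene carried most of the signal per kilobase in every library. Nrp2 made up 98.4% to 99.7% of the neuropilin level, with Nrp1 the rest. Unc5b made up 89.9% to 99.6% of the netrin receptors of the list. Slit3 made up 66.9% to 98.7% of the Slits. The plexins were shared among Plxnb2 (23.4% to 40.4%), Plxna1 (29.1% to 36.7%) and Plxnb1 (17.1% to 24.3%), and the ephrin-B ligands between Efnb1 and Efnb2, with Efnb3 never above 3.41%. Sema5a held 25.9% to 32.8% of the semaphorin level in every library. Summed over the family, the neuropilins spanned 239 to 640 normalized counts per kb in the 4 Krt14-CREER control libraries, 1198 and 1209 with Survivin LOF, 1518 and 1566 in Inv-CREER and 730 and 271 with Survivin GOF, whereas the semaphorins spanned only 1416 to 2261 over all 10. The plot of family levels by library gives these sums.

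**Figure D1:**
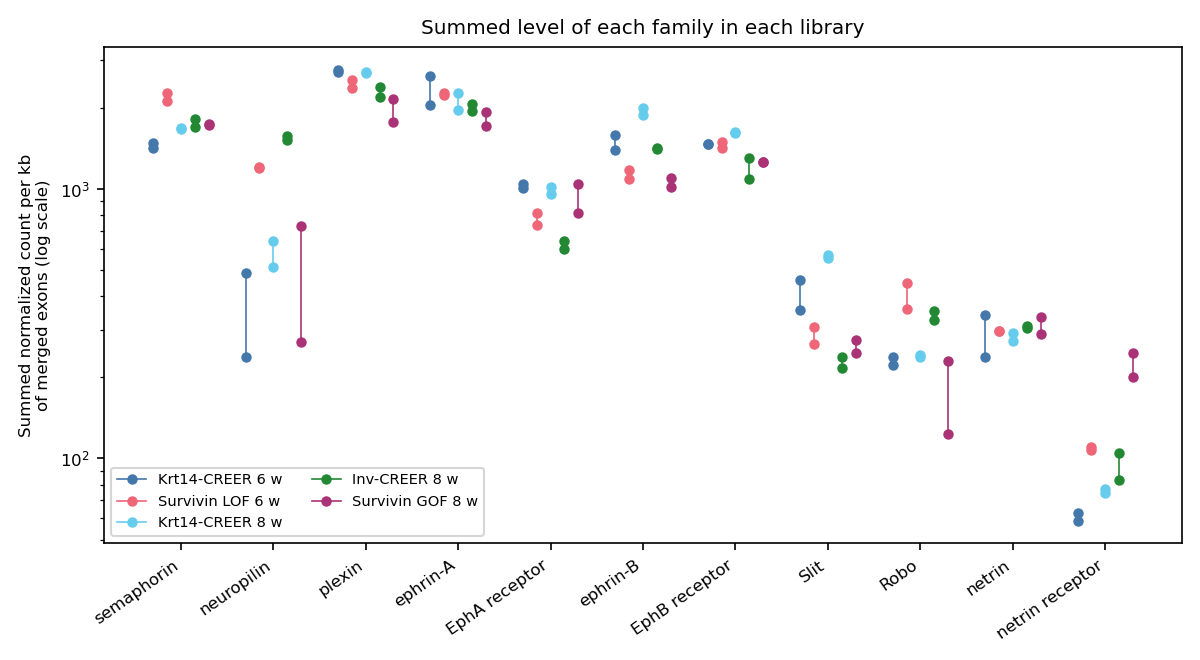
Summed level of each family, in normalized counts per kb of merged exons (log scale), in each library, with the 2 libraries of a group joined by a line. Neuropilins spread most between groups, and the plexin, ephrin-A and netrin sums spread little.

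For tests, limma was fitted to log2(value + 1) of all 10 libraries over the 21995 genes with at least 10 normalized counts in at least 2 libraries. A gene was called changed at a Benjamini-Hochberg adjusted p under 0.05 over those genes, and log2 changes carry their standard error (SE). Of the 70 members 60 were tested; Dcc, Epha3, Epha5, Epha6, Epha8, Plxna4os1, Robo3, Robo4, Sema5b and Slit2 fell under the filter.

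The first question was how Survivin loss in SmoM2 cells changed these genes at 6 weeks. With Survivin LOF, 18 of the 60 members were higher and 11 lower than in Krt14-CREER controls, where 19.5% of all tested genes were called higher and 11.4% lower. The median log2 change was 0.20 over the members and 0.16 over all genes. Rescaling the columns by the median of ratios moved the median of all genes to 0.02 and gave 16 members higher and 13 lower; the share of changed genes that were higher was 63.1% as deposited, 49.0% after that rescaling and 50.9% after quantile normalization, which gave 18 members higher and 10 lower. Among ligands 10 of 31 were higher and 7 lower, and among receptors 8 of 27 and 4.

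Among class 3 semaphorins and their neuropilin co-receptors, Sema3d, Sema3c, Nrp1 and Nrp2 rose and Sema3b fell. Sema3d, a secreted semaphorin, was at 36 and 13 normalized counts in the controls and at 774 and 717 with Survivin LOF, a log2 change of 5.03 (SE 0.48, adjusted p = 3.56e-05). The groups were far apart, and the control libraries lay only a little above the floor. Sema3c, a ligand of both neuropilins, went from 1644 and 1235 to 3172 and 3750 (log2 1.27, SE 0.15, adjusted p = 0.00012). Nrp2, the co-receptor that dominates the family here, was at 5749 and 2813 in controls and at 14083 and 14207 with Survivin LOF (log2 1.81, SE 0.39, adjusted p = 0.0053). The control libraries differed from each other by more than the LOF libraries did, yet both lay far below them. Nrp1, known as the receptor of Sema3a and of VEGF, was at 12 and 13 and then at 82 and 91 (log2 2.70, SE 0.45, adjusted p = 0.0013). Sema3b moved the opposite way, from 318 and 349 to 72 and 93 (log2 -2.01, SE 0.19, adjusted p = 3.2e-05).

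Of the plexins, which carry the signal into the cell, Plxna4 and Plxnc1 rose and Plxnb2 fell. Plxna4, which pairs with neuropilins, rose from 101 and 99 to 278 and 424 (log2 1.77, SE 0.25), and Plxnc1, the receptor of Sema7a, from 32 and 50 to 157 and 185 (log2 2.06, SE 0.27). Plxnb2, one of the most abundant plexins, fell from 7815 and 8430 to 6034 and 6083 (log2 -0.42, SE 0.14, adjusted p = 0.037). Plxna1 (log2 -0.20, SE 0.11, adjusted p = 0.21) and Plxnb1 (log2 -0.05, SE 0.10, adjusted p = 0.77) did not pass the test. Sema7a, the GPI-anchored ligand of Plxnc1, was at 20 and 24 in controls and at 3 and 0 with Survivin LOF; since the LOF value is under the floor, no fold is given (adjusted p = 0.0028). Among membrane semaphorins, Sema5a rose from 8109 and 7053 to 12973 and 13652 (log2 0.82, SE 0.09, adjusted p = 0.00011), and Sema6a (log2 0.76), Sema6c (1.23) and Sema4g (1.12) rose with it, while Sema4d fell (log2 -0.66).

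In the Eph system Ephb1, Ephb2 and Epha2 fell and Ephb3 rose among the receptors, and Efna1 and Efnb1 fell and Efna5 and Efnb3 rose among the ligands. Ephb2, a receptor for the ephrin-B ligands, was at 359 and 380 in controls and 60 and 68 with Survivin LOF (log2 -2.51, SE 0.33, adjusted p = 0.00027). Ephb1, a close relative, was at 289 and 181 and then at 82 and 41 (log2 -1.96, SE 0.44, adjusted p = 0.0068). Epha2, the EphA receptor best known in epidermis, fell from 2069 and 2268 to 776 and 927 (log2 -1.35, SE 0.24, adjusted p = 0.0018), and its ligand Efna1 from 2714 and 1979 to 1544 and 1270 (log2 -0.73, SE 0.20, adjusted p = 0.020). Ephb3 rose by 0.47 (SE 0.15). Among other ligands Efna5 (log2 0.83) and the weakly expressed Efnb3 (15 and 21 against 50 and 118; log2 2.05, SE 0.47) rose, and X-linked Efnb1 fell (log2 -0.58). Efnb2 did not pass the test (3831 and 4489 against 3499 and 3527; log2 -0.24, adjusted p = 0.26).

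Slits, Robos and netrins changed in both directions. Slit1 was at 46 and 70 in controls and 521 and 431 with Survivin LOF (log2 3.04, SE 0.34, adjusted p = 0.00010), while the more abundant Slit3 went from 2745 and 2077 to 1081 and 1428 (log2 -0.94, SE 0.16). Slit1 made up 2.5% of the Slit level per kb in controls and 28.3% with Survivin LOF. Their receptors Robo1 (log2 0.77) and Robo2 (log2 0.81) both rose. Ntn1, the classical netrin, fell from 1047 and 687 to 330 and 332 (log2 -1.35, SE 0.21, adjusted p = 0.00071), and Ntn4, a laminin-like netrin, rose from 648 and 483 to 912 and 916 (log2 0.71, SE 0.17). Unc5b, the netrin receptor that dominates its family, rose from 383 and 352 to 662 and 688 (log2 0.88, SE 0.15, adjusted p = 0.0018).

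Of these 29 calls, 18 held in each of the 4 fits that left out 1 library. Without control replicate 1, Ephb1 (log2 -1.62), Efna1 (-0.50), Sema4d (-0.47), Robo1 (0.87), Robo2 (0.82) and Plxnb2 (-0.48) were lost. Without control replicate 2, Nrp2 (1.30, adjusted p = 0.062), Robo1 (0.68), Robo2 (0.80), Ephb3 (0.31), Ntn4 (0.50), Efnb1 (-0.50) and Plxnb2 (-0.37) were lost. Without LOF replicate 1 this held for Robo1 (0.73), Robo2 (0.56), Ephb3 (0.33), Sema4d (-0.51) and Plxnb2 (-0.42), and without LOF replicate 2 for Efnb3 (1.44), Ephb1 (-1.47), Efna1 (-0.59), Efnb1 (-0.45), Ntn4 (0.70), Robo1 (0.82) and Plxnb2 (-0.43). With the Xist level in the model 10 members were called, of which 8 are among the 29: Epha2, Ephb2, Nrp1, Nrp2, Robo1, Robo2, Slit1 and Slit3; Sema3d was then at 1.20 with no call, and Plxna4 (-0.10), Unc5b (-0.13), Ntn4 (-0.40), Sema4d (0.13), Efnb1 (0.50) and Plxnb2 (0.70) had the opposite sign. Xist was high in both LOF libraries and low in both controls, so genotype and Xist level cannot be told apart here. The slope on Xist in that model came only from differences between the 2 libraries of a group, largest in GOF (7589 and 56185). Calls kept or lost with it therefore do not test the part of Xist in the LOF changes.

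**Figure D2:**
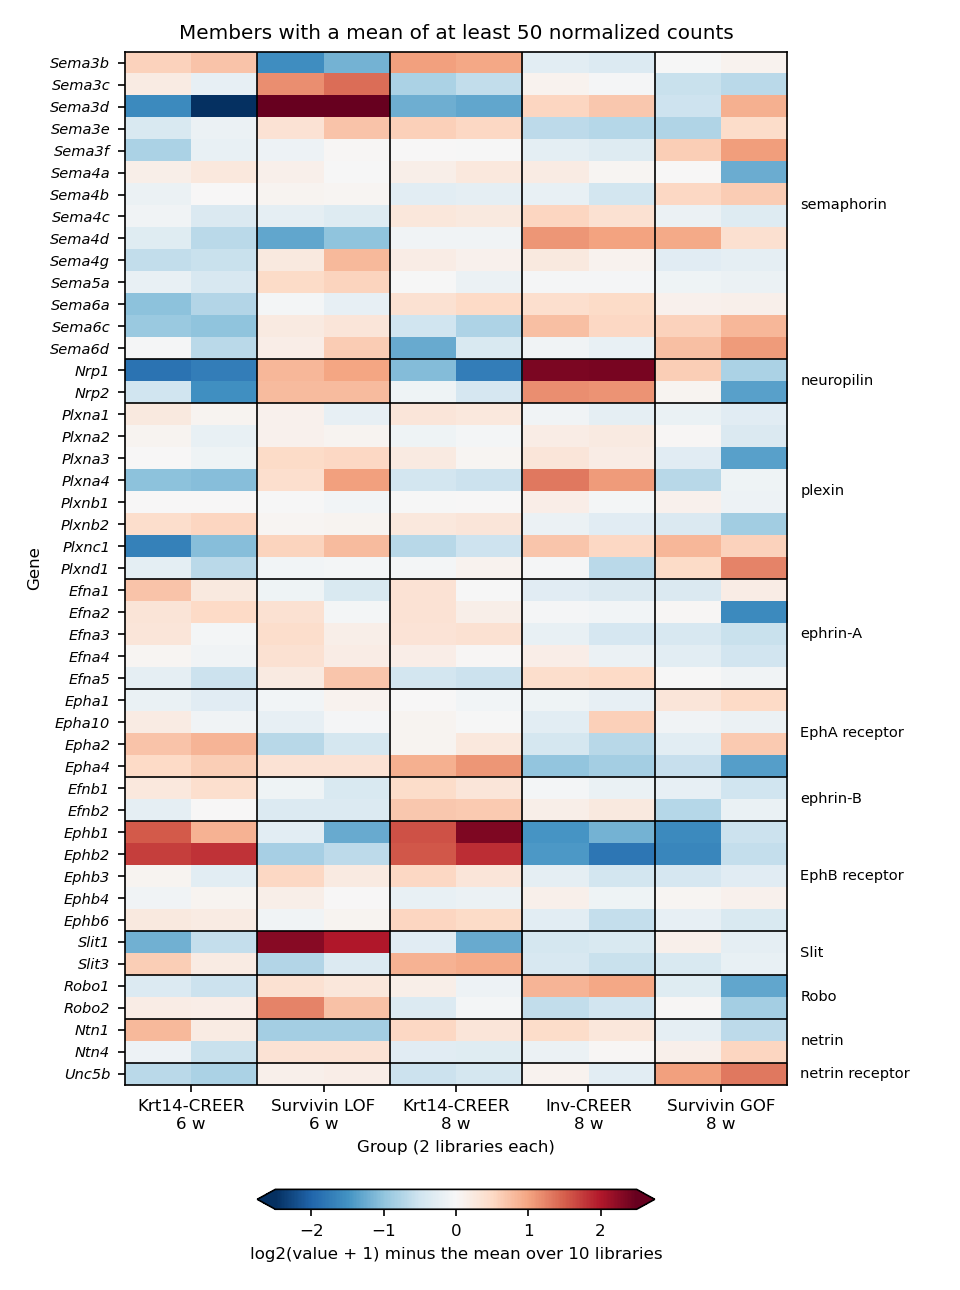
Members with a mean of at least 50 normalized counts, by family, in each of the 10 libraries; colour is log2(value + 1) minus that gene's mean over all libraries, and the scale ends at -2.5 and 2.5. Nrp1, Nrp2, Plxna4 and Plxnc1 are low in both Krt14-CREER groups, and Ephb1 and Ephb2 are high there. Nrp2 and Plxna4 are also low with Survivin GOF.

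The second question was how cells targeted through Krt14-CREER differ from those targeted through Inv-CREER at 8 weeks, with no Survivin allele named for either. Birc5 itself was not equal, at 1005 and 926 normalized counts in Krt14-CREER and 237 and 265 in Inv-CREER. Of the 60 members 13 were higher in Krt14-CREER and 10 lower, against 8.18% and 11.4% of all tested genes. The median log2 difference was -0.01 over members and -0.10 over all genes, and the rescaling by the median of ratios gave 15 higher and 10 lower; the share of changed genes that were higher was 41.8% as deposited and 51.5% after it. Ligands had 6 higher and 5 lower of 31, receptors 7 and 5 of 27.

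Of the 5 tested EphB receptors 4 were called higher in Krt14-CREER and none lower (1 of the 5, Ephb4, did not pass). Of the 5 tested EphA receptors 1, Epha4, was called higher and none lower. Ephb2 was at 317 and 386 in Krt14-CREER and 39 and 30 in Inv-CREER (log2 3.32, SE 0.33, adjusted p = 5.6e-05). Ephb1 was at 299 and 503 against 35 and 43 (log2 3.29, SE 0.44, adjusted p = 0.00049). Ephb6, which lacks kinase activity, was at 2485 and 2398 against 1425 and 1134 (log2 0.94, SE 0.13), and Ephb3 at 2103 and 1803 against 1243 and 1057 (log2 0.76, SE 0.15). Ephb4 was at 2735 and 2788 against 3397 and 2873 (log2 -0.18, adjusted p = 0.29). Epha4, a receptor that binds both ephrin classes, was at 2127 and 2479 against 581 and 637 (log2 1.91, SE 0.21, adjusted p = 0.00010). The ephrins Efna3 (log2 0.66) and Efnb1 (log2 0.48) were also higher, and Efna5 lower (1557 and 1487 against 2924 and 3028; log2 -0.97, SE 0.15). Efnb2, at 7135 and 7016 against 4951 and 5300, missed the threshold (log2 0.47, adjusted p = 0.053).

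Sema7a, the Plxnc1 ligand, was at 112 and 108 in Krt14-CREER and at 5 and 5 in Inv-CREER, which is under the floor, so that no fold is given (adjusted p = 0.0015). Sema3b was at 435 and 419 against 178 and 168 (log2 1.30, SE 0.19), Sema3e, the ligand of Plxnd1, at 470 and 447 against 196 and 188 (log2 1.25, SE 0.31), and Slit3 at 3272 and 3415 against 1363 and 1231 (log2 1.37, SE 0.16, adjusted p = 0.00019). The libraries of the groups did not overlap in these genes, which the naming rule required. Plxnb2 (log2 0.51) and Plxna1 (log2 0.44) were higher by smaller amounts, and Plxnb1 (log2 -0.06, adjusted p = 0.73) and Sema5a (log2 -0.04, adjusted p = 0.82) did not pass.

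Nrp1, Nrp2 and the plexins Plxna4 and Plxnc1 stood on the other side, unlike Plxna1 and Plxnb2. Plxna4, which pairs with neuropilins, made up at most 1.53% of the plexin level per kb in any library, and Plxna1 at least 29.1%. Nrp1 was at 21 and 13 in Krt14-CREER and at 235 and 240 in Inv-CREER (log2 -3.76, SE 0.45, adjusted p = 0.00022). Nrp2 was at 7554 and 6062 against 18266 and 17689 (log2 -1.41, SE 0.39, adjusted p = 0.027). Plxna4 was at 151 and 143 against 517 and 436 (log2 -1.69, SE 0.25, adjusted p = 0.00095) and Plxnc1 at 65 and 74 against 171 and 152 (log2 -1.21, SE 0.27). Sema3d (47 and 44 against 160 and 177; log2 -1.86), Sema3c (log2 -0.72), Sema6c (log2 -1.26), Sema4d (486 and 488 against 1118 and 1039; log2 -1.14) and Robo1 (2548 and 2109 against 4164 and 4489; log2 -0.90) were lower as well. In the same Inv-CREER libraries the sebaceous list summed to 194490 and 200345 against 41351 and 37485 in Krt14-CREER; the part of cell makeup in these differences was not tested.

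Of these 23 calls 11 held in every fit that left out 1 library. Robo1, Nrp2, Plxna1, Efnb1, Plxnb2, Sema3d and Sema3e were lost whichever of the 4 was left out, Nrp2 with log2 values between -1.57 and -1.25 and adjusted p up to 0.17, Sema3d between -1.94 and -1.79, Robo1 between -1.03 and -0.76, Sema3e between 1.22 and 1.29, Plxnb2 between 0.44 and 0.57, Efnb1 between 0.40 and 0.56 and Plxna1 between 0.37 and 0.50. Plxnc1 (-1.30 to -1.11) was lost without Krt14-CREER replicate 1 or either Inv-CREER library, Efna3 (0.54 to 0.77) without either Krt14-CREER library or Inv-CREER replicate 2, Sema3c (-0.81 to -0.64) without replicate 1 of either group, Ephb3 (0.65 to 0.88) without Krt14-CREER replicate 1 or Inv-CREER replicate 2, and Sema6c (-1.14) without Inv-CREER replicate 1. All 23 kept their call with the Xist level in the model, and Xist was low in all 4 libraries.

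**Figure D3:**
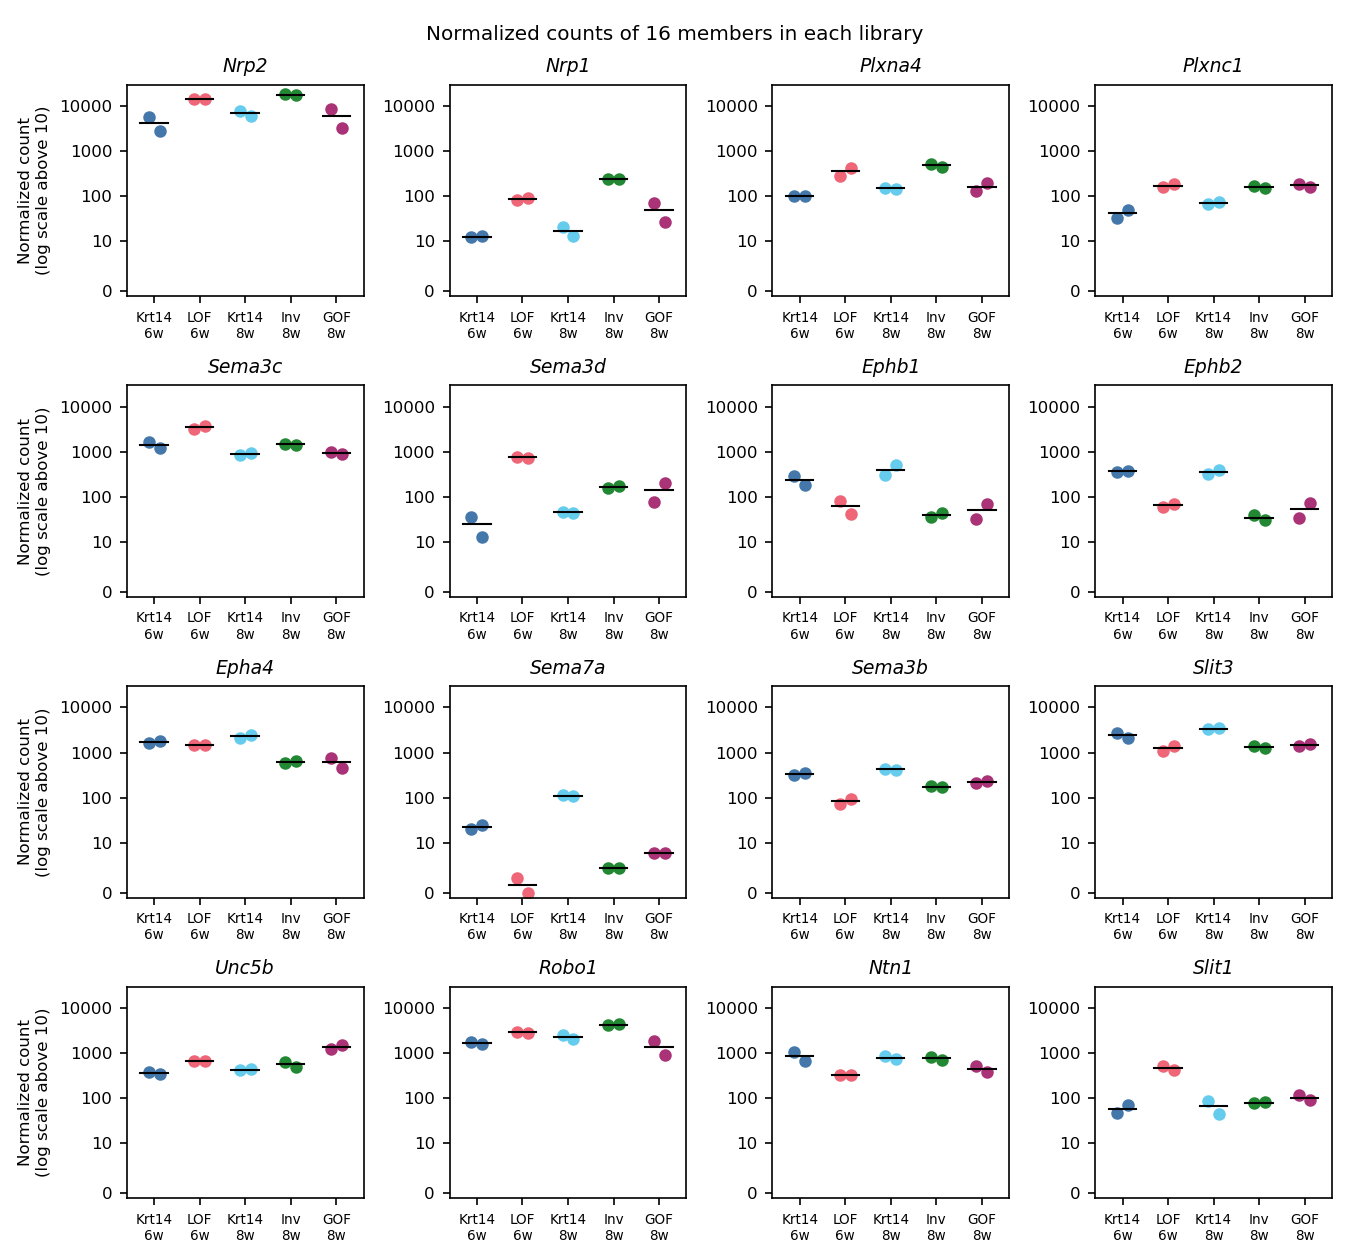
Normalized counts of 16 members in each of the 10 libraries (log scale above 10, linear below); points are libraries and bars are group means of 2. Sema7a is at 3 and 0 with Survivin LOF and at 112 and 108 in Krt14-CREER at 8 weeks, and Nrp1 runs from 12 in the 6 week controls to 240 in Inv-CREER.

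Ephb1, Ephb2 and Sema7a shared this pattern, high in both Krt14-CREER groups and low in the other 3, which is a description of genes picked after their values were seen. Over the 5 groups, in the order Krt14-CREER 6 weeks, LOF, Krt14-CREER 8 weeks, Inv-CREER and GOF, Ephb2 averaged 370, 64.0, 352, 34.5 and 52.5 normalized counts. Ephb1 averaged 235 and 401 in the Krt14-CREER groups and at most 61.5 in the others. Sema7a was far lower and less even, at 20 and 24 in Krt14-CREER at 6 weeks and 112 and 108 at 8 weeks, and at 8 or less in the other groups. In the GRCm38 build Ephb1 lies on chromosome 9 from 101922128 to 102354693 (minus strand), Ephb2 on chromosome 4 from 136647539 to 136835988 (minus strand), and Sema7a on chromosome 9 from 57940112 to 57962865 (plus strand). The 250 bases before each RefSeq transcription start in build GRCm38.p6 are shown 5′ to 3′ on the gene's strand, as examples of this pattern. These 3 genes are among the 16 members called in opposite directions in the LOF and the driver comparison. Capitals mark matches to the CCAAT box (CCAAT, or ATTGG on the other strand). The windows are chr9:102354694-102354943 for Ephb1, chr4:136836013-136836262 for Ephb2 and chr9:57939862-57940111 for Sema7a.
Ephb1: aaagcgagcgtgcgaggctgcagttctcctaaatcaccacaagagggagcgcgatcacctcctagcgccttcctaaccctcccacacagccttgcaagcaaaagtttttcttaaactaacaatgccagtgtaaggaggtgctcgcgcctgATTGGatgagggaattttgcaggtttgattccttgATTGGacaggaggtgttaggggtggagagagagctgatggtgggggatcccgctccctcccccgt
Ephb2: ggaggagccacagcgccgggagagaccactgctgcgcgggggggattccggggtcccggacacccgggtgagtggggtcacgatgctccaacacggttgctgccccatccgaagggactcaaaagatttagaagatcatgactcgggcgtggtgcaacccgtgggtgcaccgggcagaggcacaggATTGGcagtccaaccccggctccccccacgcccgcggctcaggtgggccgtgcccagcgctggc
Sema7a: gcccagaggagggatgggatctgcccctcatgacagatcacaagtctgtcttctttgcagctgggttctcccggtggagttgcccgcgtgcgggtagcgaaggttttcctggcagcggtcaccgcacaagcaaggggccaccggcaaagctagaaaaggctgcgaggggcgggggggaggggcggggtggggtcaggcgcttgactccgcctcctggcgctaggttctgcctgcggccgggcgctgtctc
Ephb1 held 2 matches, starting at -100 and -65 from the start site, Ephb2 held 1 at -64, and Sema7a held none in this window. The CCAAT letters stand in 33.8% of all 32851 windows of this kind, and a match is a description, not a site. RefSeq windows were found for 57 of the 70 members (73 windows). CCAAT stood in 20 of these 73 windows, from 18 members. The consensus of the Gli factors, which end the Hedgehog pathway (GACCACCCA, both strands), was in 0 of the 73 windows and in 0.225% of all windows. Its core CCACCCA, which the consensus contains, was in 8.11% of all windows and in 7 of the 73, from 7 members (Plxna2, Robo2, Sema3c, Sema3g, Sema4a, Sema5a and Sema6c). The AP-1 motif TGANTCA was in 6.75% of all windows and in 3 of the 73, from 3 members (Sema4c, Sema4d and Sema6b).

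The Survivin LOF comparison at 6 weeks and the Krt14-CREER against Inv-CREER comparison at 8 weeks share no library, so their members can be set beside each other. Called in both were 18 members, which is 62.1% of the 29 called with Survivin LOF and 78.3% of the 23 called between the drivers. Over all genes the same shares were 42.6% and 67.3%. Of these 18, 16 had opposite signs. Robo1, Nrp1, Nrp2, Sema3c, Plxna4, Sema6c, Sema3d, Efna5 and Plxnc1 were higher with Survivin LOF than in its Krt14-CREER controls and lower in 8 week Krt14-CREER than in Inv-CREER. Ephb2, Efnb1, Ephb1, Plxnb2, Sema7a, Slit3 and Sema3b were lower with Survivin LOF and higher in Krt14-CREER than in Inv-CREER. Ephb3 was higher and Sema4d lower in both. Over all tested genes, 2811 of the 2901 called in both had opposite signs, which is 96.9%, against 88.9% of the members.

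**Figure D4:**
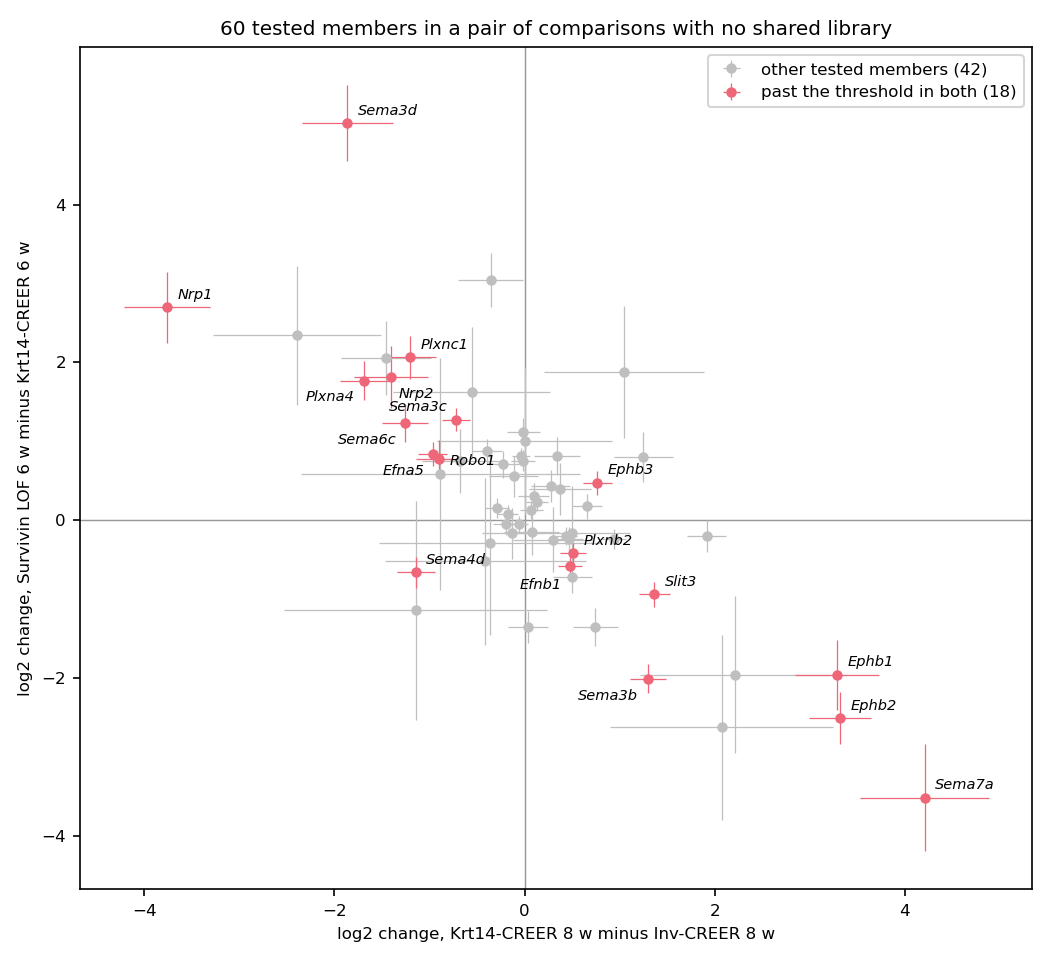
log2 change of the 60 tested members with Survivin LOF (vertical) against the log2 difference between Krt14-CREER and Inv-CREER at 8 weeks (horizontal), with bars of 1 SE; the 18 members past the threshold in both are coloured and named. Of those 18, 16 lie at the upper left or lower right, and Ephb3 and Sema4d do not.

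The third question was how Survivin gain changed Inv-CREER cells at 8 weeks. With Survivin GOF, 5 members were higher and 10 lower, against 6.87% and 8.4% of all tested genes, with a median log2 change of -0.08 over members and -0.01 over all genes. Among ligands 2 were higher and 5 lower of 31, and among receptors 3 and 5 of 27. None of the 5 EphB receptors was called in limma's fit, nor did any of them have an unadjusted p under 0.05; Ephb2, for example, was at 39 and 30 in Inv-CREER and 34 and 71 with GOF (log2 0.51, adjusted p = 0.34).

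Unc5b, the most abundant Unc5 receptor in these cells, had the smallest adjusted p among the members. It was at 647 and 506 in Inv-CREER and 1239 and 1516 with Survivin GOF (log2 1.26, SE 0.15, adjusted p = 0.00053). Its ligand Ntn1 fell from 826 and 725 to 513 and 377 (log2 -0.81, SE 0.21, adjusted p = 0.023). Sema4b, a membrane semaphorin, rose from 1202 and 1001 to 1946 and 2132 (log2 0.89, SE 0.12, adjusted p = 0.00088), and Sema3f, the classical Nrp2 ligand, from 351 and 335 to 635 and 856 (log2 1.10, SE 0.21, adjusted p = 0.0057). Epha1 rose by 0.57 (SE 0.11). Plxnd1, the endothelial receptor of Sema3e, was at 89 and 57 in Inv-CREER and at 128 and 216 with GOF (log2 1.21, SE 0.33, adjusted p = 0.030). Of the 8 endothelial markers 6 were higher in the library at 216 than in the other GOF library: Cdh5 (221 against 15), Kdr (294 against 41), Emcn (242 against 49), Cldn5 (276 against 22), Tie1 (102 against 8) and Pecam1 (338 against 188). Egfl7 (115 against 111) and Esam (6 against 5) were nearly equal. Without that library Plxnd1 was at 0.84 with an adjusted p of 0.19. Robo4, an endothelial Robo too low to be tested, was at 21 in that library and 5 in the other. Sema3a, the repellent that acts through Nrp1, was at 34 and 294 with GOF and 7 and 5 in Inv-CREER (adjusted p = 0.10), and the part of other cells in these values was not tested.

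Nrp1, Nrp2, Plxna4 and Plxna3 fell with Survivin GOF, while Plxnd1 rose and no other plexin was called in limma's fit. Nrp1 was at 235 and 240 in Inv-CREER and at 70 and 26 with GOF (log2 -2.45, SE 0.45, adjusted p = 0.0054). Nrp2 was at 18266 and 17689 against 8558 and 3177 (log2 -1.79, SE 0.39, adjusted p = 0.012). Plxna4 went from 517 and 436 to 128 and 193 (log2 -1.59, SE 0.25, adjusted p = 0.0024), Plxna3, which is X-linked, from 967 and 901 to 645 and 307 (log2 -1.07, SE 0.26), and Robo1 from 4164 and 4489 to 1878 and 931 (log2 -1.71, SE 0.25, adjusted p = 0.0014). In Nrp1, Nrp2, Plxna3 and Robo1 GOF replicate 2 was the lower library, and both GOF libraries lay below both controls, as the naming rule required. Sema3c (log2 -0.64), Sema4c (-0.69), Efnb2 (4951 and 5300 against 2722 and 3981; log2 -0.64) and Efna5 (-0.52) fell too. Sema5a (log2 -0.10, adjusted p = 0.53), Plxna1 (-0.08, adjusted p = 0.70) and Plxnb1 (-0.07, adjusted p = 0.69) did not pass.

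Only Unc5b, Sema4b, Plxna4 and Robo1 of these 15 calls held in each fit that left out 1 library. Without Inv-CREER replicate 1, Nrp1 (-2.46, adjusted p = 0.055), Nrp2 (-1.76), Efnb2 (-0.69), Ntn1 (-0.72), Sema4c (-0.61), Sema3c (-0.59), Plxnd1 (1.53), Plxna3 (-1.02) and Efna5 (-0.54) were lost, and 6 members were called. Without Inv-CREER replicate 2, 5 were called; Nrp1 (-2.43, adjusted p = 0.062), Nrp2 (-1.81), Efnb2 (-0.59), Ntn1 (-0.91), Sema3c (-0.69), Epha1 (0.52), Plxnd1 (0.90), Plxna3 (-1.12), Sema3f (1.07) and Efna5 (-0.49) were lost. Without GOF replicate 2, the library with the higher endothelial sum, 11 were called, and Ntn1 (-0.59), Nrp2 (-1.07, adjusted p = 0.056), Sema3c (-0.58), Plxnd1 (0.84) and Efna5 (-0.48) were lost, and without GOF replicate 1, 28 were called. A limma fit to these 4 libraries alone called 0 members, with 22 at an unadjusted p under 0.05, and 0 were called with the Xist level in the model, with 13 at an unadjusted p under 0.05. In that model Nrp1 (0.44), Nrp2 (0.49), Robo1 (0.27), Plxna3 (0.84) and Plxnd1 (-0.56) had the opposite sign; Xist was high in both GOF libraries and low in both controls, so genotype and its level cannot be told apart.

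Against the Survivin LOF comparison, with which this one shares no library, 8 members were called in both, 27.6% of the 29 and 53.3% of the 15, where the shares over all genes were 23.0% and 46.6%. Robo1, Nrp1, Nrp2, Sema3c, Plxna4 and Efna5 rose with LOF and fell with GOF. Unc5b rose in both and Ntn1 fell in both. Over all genes, 767 of the 1564 called in both had opposite signs. The GOF and LOF libraries also differ in driver, time and control, so these are values side by side and not a test of dose.

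Between the Krt14-CREER controls of 6 and 8 weeks few members were called in limma's fit, a share near that of all genes. Of the 60 tested members, 16 had an unadjusted p under 0.05 in it. Between 6 and 8 weeks in Krt14-CREER cells 3 members were higher and 1 lower, against 4.02% and 0.855% of all genes; of changed genes 82.5% were higher as deposited and 53.6% after rescaling by the median of ratios, which left 1 member higher and 1 lower. The median log2 change was 0.26 over members and 0.15 over all genes, and 0.12 and 0.00 after that rescaling. Sema6a, a membrane semaphorin that binds class A plexins, rose from 402 and 491 to 1065 and 1153 (log2 1.32, SE 0.13, adjusted p = 0.00056), and this call held without any 1 library. Efnb2 (log2 0.77, SE 0.15) rose, with 0.66 to 0.89 and no call without any of the 4 libraries. Sema4g (log2 0.74, SE 0.17) rose, with 0.71 to 0.78 and no call likewise. Sema3c fell from 1644 and 1235 to 826 and 931 (log2 -0.70, SE 0.15) and lost its call without control replicate 1 of 6 weeks (-0.49) or either 8 week library (-0.61 and -0.79). No receptor was called in limma's fit (5 of 27 had an unadjusted p under 0.05). Plxna1 (log2 0.13), Sema5a (0.22) and Plxnb2 (-0.20) did not pass.

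Survivin GOF cells were also set beside Krt14-CREER cells of the same time, which differ in driver as well as in Survivin. Here 13 members were higher and 18 lower, against 15.2% and 12.5% of all genes, and the median log2 difference was -0.18 over members and 0.09 over all genes. Among ligands 10 were higher and 8 lower of 31, and among receptors 3 and 10 of 27. Since this comparison shares its libraries with those above, its values only complete them. Unc5b was at 419 and 452 in Krt14-CREER and 1239 and 1516 with GOF (log2 1.65, SE 0.15, adjusted p = 4.3e-05). Ephb2 (log2 -2.80, SE 0.33), Ephb1 (-3.03, SE 0.44), Epha4 (-1.97, SE 0.21), Slit3 (-1.18, SE 0.16) and Efnb2 (-1.10, SE 0.15) were lower, and Sema7a was at 8 and 8, near the floor, against 112 and 108. Sema6c was higher (log2 1.33, SE 0.24). The higher calls of Sema6d (log2 1.73), Sema3d (1.45) and Efnb3 (1.77) were each lost without 1 library or more: Sema6d was at 1.28 without Krt14-CREER replicate 1, Efnb3 at 1.36 without Krt14-CREER replicate 2 and 1.77 without GOF replicate 2, and Sema3d at 1.40 without Krt14-CREER replicate 2 and 0.75 without GOF replicate 2, with its call also lost without Krt14-CREER replicate 1. Sema3a was at 0 and 13 in Krt14-CREER and 34 and 294 with GOF and had an adjusted p of 0.033, which became 0.21 without GOF replicate 2 and 0.26 without Krt14-CREER replicate 1. Unc5d is named for its values and outside the naming rule; it stood at 58 and 31 in Krt14-CREER and 0 and 11 with GOF, and its call was lost without either Krt14-CREER library (log2 -3.21 and -4.09) or without GOF replicate 1 (-1.86). In all, 16 of the 31 calls held in every fit that left out 1 library. With the Xist level in the model 2 of the 31 were kept, Ephb2 and Efnb2, and 9 had the opposite sign: Sema3a (-3.60), Sema6d (-0.31), Sema3d (-1.91), Ntn4 (-0.35), Epha1 (-0.09), Plxna3 (1.25), Plxnb2 (0.086), Robo1 (1.48) and Efnb1 (0.22). Nrp2 (log2 -0.38, adjusted p = 0.52), Sema5a (-0.06) and Plxnb1 (-0.01) did not pass.

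Genes that act downstream of these receptors were taken from 5 lists. With Survivin LOF, of 25 tested plexin and semaphorin effectors 5 were higher and 3 lower, of 24 ephrin and Eph effectors 5 and 5, of 19 Slit and Robo effectors 2 and 7, of 18 netrin receptor partners 9 and 2, and of 25 other guidance cues and adhesion genes 7 and 6. The medians were -0.06, 0.15, -0.18, 0.57 and 0.14 on the log2 scale, against 0.16 over all genes, of which 19.5% were called higher and 11.4% lower. Pak1, a kinase downstream of Rac and Cdc42, fell from 1639 and 1893 to 645 and 591 (log2 -1.51), and of the collapsin response mediators Dpysl3 rose (1.11) and Dpysl2 fell (-1.01). Adam10, the protease that sheds ephrins, fell (-0.81), as did Nck2 (-1.05) and Abl2 (-0.53). Sdc1, a syndecan, fell from 16755 and 16931 to 6133 and 4929 (log2 -1.61), with Gpc1 (-0.89), Flrt2 (-1.17) and Flrt1 (-1.28). Neogenin, Neo1, the Dcc homologue that these cells do express, rose from 4252 and 3771 to 7959 and 9357 (log2 1.11), with Dscaml1 (4.29) and Rgmb (0.96). Nrg1, a neuregulin, fell from 3012 and 4920 to 105 and 145 (log2 -4.95), Wnt5a fell (-1.79), and the adhesion molecule Nrcam rose from 2764 and 2345 to 12671 and 13819 (log2 2.38).

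In Krt14-CREER against Inv-CREER the same lists held 5 higher and 1 lower, 6 and 2, 8 and 2, 3 and 6, and 3 and 4, in that order, with medians of 0.23, 0.21, 0.29, -0.56 and 0.14. Over all genes 8.18% were called higher and 11.4% lower, and the median was -0.10. Pak1 (log2 1.16), Adam10 (0.61), Sdc1 (1.70) and Flrt2 (1.47) were higher in Krt14-CREER, and Dscaml1 (-2.92) and Neo1 (5115 and 4450 against 9406 and 9653) lower. Nrg1 was at 1803 and 2716 in Krt14-CREER and 73 and 57 in Inv-CREER (log2 5.08). With Survivin GOF against Inv-CREER the lists held 1 higher and 3 lower, 5 and 2, 3 and 1, 2 and 2, and 2 and 3, with medians of -0.01, 0.21, -0.03, -0.18 and 0.10. Over all genes 6.87% were called higher and 8.4% lower, and the median was -0.01. Dpysl2 fell from 699 and 757 to 181 and 206 (log2 -1.91), Wnt5a from 895 and 861 to 294 and 250 (-1.69) and Lrrc4 from 2592 and 2577 to 1030 and 299 (-2.22). Tiam1, a Rac exchange factor that binds ephrins and Eph receptors, rose from 5930 and 5659 to 9491 and 13129 (log2 0.95).

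The 3 antisense rows of Plxna4 were at 21 normalized counts or less in every library, and none of the 2 that were tested was called in any comparison; with the strand setting of the counting not given in the sources used here, reads of Plxna4 and of these transcripts cannot be told apart. Plxna4os3 shares 110 exon bases with Plxna4, which is 0.8% of the Plxna4 exons. Other members with exons shared with an opposite-strand gene include Efna3 (14.1% of its exon bases, with Gm15998), Plxna1 (10.7%, with Gm26811) and Epha1 (6%, with Zyx), and their counts are uncertain to that extent. Efna1, Efna3 and Efna4 are neighbours on chromosome 3, Efna1 from 89271733 to 89281142, Efna3 from 89313899 to 89322965 and Efna4 from 89333390 to 89338028; with Survivin LOF Efna1 fell while Efna3 (863 and 672 against 952 and 776) and Efna4 (421 and 385 against 533 and 467) did not pass the test.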

How the data were processed

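The authors deposited 1 table of normalized counts for 49671 Ensembl gene IDs in 10 libraries. The values are treated as a score: per the submitters' processing notes STAR and HTSeq were used with GRCm38 (mm10), and the deposited columns sum to about the same total, and in each library 99.3% to 99.9% of values are whole multiples of what 1 read is worth. For versions, annotation release and strand setting, the sources used here give nothing. Library sums, reads behind each value and floors were computed from those steps. limma 3.58.1 (R 4.3.3) was fitted to log2(value + 1) of all groups, with intensity trend, 5 residual degrees of freedom and a median prior of 5.91; the fit was tested on simulated data. Gene positions and exon lengths came from GENCODE M21 (49412 IDs matched). Members and lists were chosen with earlier results of these data known. In each main comparison the named genes are up to 12 called members in each direction and the 3 highest that were not called. For the called members the rule asked for a mean of at least 50 in the higher group and groups that do not overlap. A member named in 1 comparison can have its values given in others, such as Sema7a with Survivin LOF. Some called members past the 12, such as Robo2 and Ntn4 with Survivin LOF, are given where their family is described. The labels name no batch.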

Additional observations from a re-analysis of the deposited data

How the results depend on the processing

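Pseudocounts of 0.5 and 5, a filter of at least 50, median of ratios rescaling, quantile normalization and limma-voom on recovered reads kept the number of called members within 1.5 times of 29, 15, 23 and 31 in the LOF, GOF against Inv-CREER, driver and GOF against Krt14-CREER comparisons; of the 4 called between 6 and 8 weeks, the rescaling left 2. With no filter on low values 23, 10, 16, 1 and 24 were called (the time comparison before the last). At a threshold of 0.01 the counts were 23, 8, 14, 1 and 18, and with only the 2 groups compared 21, 0, 30, 0 and 17; for the time comparison, where limma called 0, 21 members had an unadjusted p under 0.05. With Xist in the model they were 10, 0, 28, 9 and 3. Leaving out 1 library gave 22 to 24, 5 to 28, 12 to 15, 1 to 2 and 18 to 36. Shared replicate numbers do not pair the libraries (same-number correlations of deviations -0.054 to -0.008); with the replicate block the counts were 29, 15, 25, 5 and 32. Signs turned only with Xist in the model: with LOF Plxna4 -0.10, Unc5b -0.13, Ntn4 -0.40, Sema4d 0.13, Efnb1 0.50 and Plxnb2 0.70; with GOF against Inv-CREER Plxnd1 -0.56, Nrp1 0.44, Nrp2 0.49, Robo1 0.27 and Plxna3 0.84; with GOF against Krt14-CREER Sema3a -3.60, Sema6d -0.31, Sema3d -1.91, Ntn4 -0.35, Epha1 -0.09, Plxna3 1.25, Plxnb2 0.086, Robo1 1.48 and Efnb1 0.22. The cause was not tested. The 2 libraries a group and the depth limit precision, most for genes near the floor.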
